A study of Mus musculus with 2 samples.

Results

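The genes of the cytosolic ribosomal proteins were compared between 2 clones derived from LM8, an osteosarcoma line of the mouse, by stable transfection. Members were taken by symbol: Rpl or Rps followed by a number and an optional a, x or l, together with Rplp0, Rplp1, Rplp2 and Rpsa. Only probe sets that the platform annotation gave to such a symbol alone were used. This gave 48 genes of 12393 with 1 symbol on the array, 26 of the large subunit and 22 of the small subunit, read by 100 probe sets. Of these, 46 genes were measured, meaning that at least 1 probe set lay above a floor in both clones. A mouse gene table held 84 protein-coding symbols that fit the rule, and 47 of them had a probe set with that symbol alone. A further 27 symbols of the rule were on the array only in probe sets shared with other symbols. Gene values and subunit counts below cover the 48 genes alone. One clone, the hPHD4 clone, carried a full-length cDNA of human PHD4, a prolyl hydroxylase related to the oxygen sensors that act on hypoxia-inducible factors. The control clone carried the empty pcDNA3.1 vector, and both were kept under G418 at 0.5 mg/ml. The transgene is human and the probe sets are for mouse genes, and whether any of them reads it was not tested. Each clone was hybridised to 1 Affymetrix array, so each group is 1 clone and 1 array. There is therefore no replicate check, no test and no p-value for any difference below, and a difference between the arrays cannot be told apart from a difference between the clones. The number of arrays limits the precision.

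The cytosolic ribosome joins a small subunit, which decodes the messenger RNA, to a large subunit, which forms peptide bonds and holds the exit tunnel. Cells make most ribosomal proteins in matched amounts, and many of their genes share a promoter type and a messenger RNA that begins with a run of pyrimidines, the terminal oligopyrimidine (TOP) tract. Through that tract the mTOR pathway sets how strongly these messengers are translated. An array reads the amount of messenger RNA and does not see this control. In a bulk culture, fewer cells of a type and less RNA per cell cannot be told apart.

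The start of transcription is shown for 12 members because the TOP tract is the feature that marks this family. Each line gives 30 bases of the RefSeq promoter table (build GRCm38.p6), 5′ to 3′ on the strand of the gene, with the annotated start at the 16th base. Capitals mark the longest run of C and T. The first 8 are the members whose annotated start is a C followed by at least 4 further pyrimidines. The last 4 are members at the extremes of the log2 ratios whose annotated start has no such run.
Rps6 (chr4:86857353-86857382, minus strand): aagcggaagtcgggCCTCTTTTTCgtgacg
Rps10 (chr17:27635230-27635259, minus strand): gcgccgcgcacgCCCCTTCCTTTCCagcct
Rps18 (chr17:33955651-33955680, minus strand): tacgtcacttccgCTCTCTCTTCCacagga
Rps27 (chr3:90213634-90213663, minus strand): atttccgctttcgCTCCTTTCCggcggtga
Rpl14 (chr9:120571502-120571531, plus strand): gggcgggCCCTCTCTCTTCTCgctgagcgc
Rpl35 (chr2:39005117-39005146, minus strand): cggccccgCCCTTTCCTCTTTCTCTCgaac
Rpl38 (chr11:114668565-114668594, plus strand): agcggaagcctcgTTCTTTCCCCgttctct
Rplp2 (chr7:141447636-141447665, plus strand): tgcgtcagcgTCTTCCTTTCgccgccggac
Rpl7l1 (chr17:46782642-46782671, minus strand): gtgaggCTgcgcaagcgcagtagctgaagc
Rpl41 (chr10:128549154-128549183, minus strand): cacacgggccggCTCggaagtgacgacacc
Rps25 (chr9:44407699-44407728, plus strand): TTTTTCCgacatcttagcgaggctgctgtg
Rpl39l (chr16:10170213-10170242, plus strand): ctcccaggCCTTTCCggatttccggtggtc

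Promoter windows of 300 bases, 250 before the annotated start and 50 from it on, matched 42 members by symbol; Rpl7, Rpl8, Rps14, Rps20, Rps29 and Rps4l had no match. A C at the start with at least 4 further pyrimidines was found in 8 of 50 windows (16%), beside 2.50% of 32817 windows of all genes. This rule needs a C at the exact annotated base, so its count depends on the annotation of the start. A looser rule asked for 8 pyrimidines in a row within the 30 bases around the start. It was met by 19 of 42 members (45.2%), beside 13.9% of all genes. Motifs were searched on both strands. The letters CCGGAA, the core bound by ETS factors, were found for 28 of 42 members (66.7%), beside 16.6% of all genes. GGGCGG, the core of the GC box, was found for 57.1% of the members and 38.2% of all genes, and TATAAA for 14.3% and 15.7%. AAGATGGC, part of the motif of YY1, was found for 9.52% and 3.18%. None of these motifs contains another. The 8 measured members with the pyrimidine start had a median log2 ratio of −0.14, between −0.82 (Rps6) and 0.25 (Rps27), and the 33 others matched and measured had a median of −0.09. Under the looser rule the order was reversed. The 19 members with a run of 8 had a median of −0.02, and the 22 without it −0.13. The 28 with CCGGAA had a median of −0.07, and the 13 without it −0.12. The ratios without CCGGAA, from −0.25 to 0.13, lay inside the range of those with it, from −0.82 to 0.38. Matches are letters in a window and do not show that a factor binds there.

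Signals are log2 values per probe set. A ratio is always the hPHD4 clone minus the control clone on the log2 scale, averaged over the measured probe sets of a gene. The floor was the 40th percentile of the array, a linear signal of 81.1 on the hPHD4 array and 67.8 on the control array. Both arrays had a trimmed mean near 500, at 500.2 each. Over all 7452 measured genes the median ratio was 0.03. The pooled SD between probe sets of 1 gene was 0.35 over all genes and 0.26 over the 19 members with at least 2 measured probe sets. It covers the error of single probe sets only. The ratio of the 3′ to the 5′ control probe set was 1.86 and 1.58 for Actb and 0.978 and 0.911 for Gapdh in the hPHD4 and control arrays. Of 10 listed osteoblast markers, Runx2, Spp1 and Bglap had no probe set with their symbol alone and were not assessed. The other 7, among them Sp7, Alpl and Col1a1, were all measured in both clones, with summed linear signals of 34356 and 38929. Their median ratio was 0.21, with 4 of 7 above 0 (Sp7, Alpl, Dlx5 and Ibsp), and the bright Col1a2 and Sparc lay below 0. Of the markers for other cell types with a probe set of their symbol alone, 3 of 7 leukocyte genes, 2 of 6 endothelial, 1 of 5 muscle, 0 of 7 epithelial and 0 of 4 adipocyte genes were measured. Their summed signals were 473 and 406 for leukocyte and 319 and 414 for endothelial markers in the hPHD4 and control clones, and Ptprc, the pan-leukocyte marker, lay under the floor in both. The part of these markers in the results was not tested.

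As deposited, ribosomal protein genes lay slightly lower in the hPHD4 clone, a shift that was absent after a loess correction fitted with the members included. Scaling to spiked-in controls raised every gene, to a median of 0.30 for the members and 0.42 for all measured genes. As deposited, the median ratio of the members was −0.09, with 33 of 46 measured members (71.7%) below 0, where 46.4% of all measured genes lay. The difference from the median of all genes was −0.12. It was −0.02 after quantile normalization, with 54.3% of the members and 50.7% of all measured genes below 0. It was −0.00045 after a loess correction for signal, with 23 of 46 members and 50.9% of all measured genes below 0, so the shift depended on the scaling. Both corrections were computed with the members' own and the joint probe sets included. Above a mean log2 signal of 14 there were 21 members and 10 other genes. There the corrections could take out part of a shift of the members themselves, which was not tested. Single members were close together: 40 of 46 had a log2 ratio within 0.32 of 0. Beyond 0.32, 5 members (10.9%) were lower and 1 (2.17%) was higher, while 15.9% of all measured genes were lower and 22.6% higher by that amount. At 1.5-fold 1 member was lower and 0 were higher, beside 5.22% and 8.94% of all measured genes. Other bright genes were also close together. With a mean log2 signal over 12, 9 of 246 other genes were lower and 3 higher at 1.5-fold, and 0 of 32 members were either. At 2-fold the count was 0 in both directions, beside 0.98% lower and 1.89% higher.

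**Figure D1:**
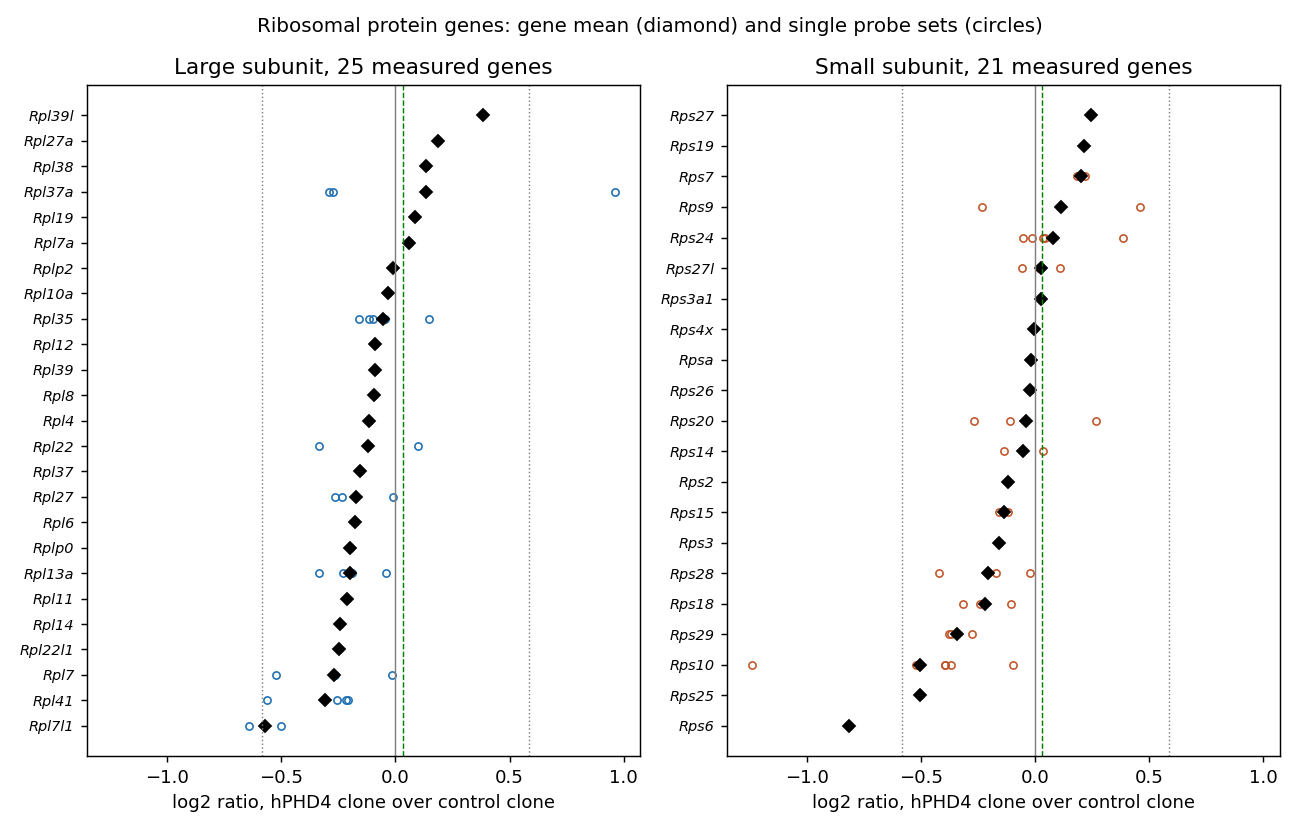
Log2 ratios (hPHD4 clone over control clone) of the 25 measured large subunit genes (left) and 21 small subunit genes (right). Diamonds are gene means and circles single measured probe sets; the dashed line is the median of all measured genes (0.03), dotted lines mark 1.5-fold. Most diamonds lie left of the dashed line, a shift that was not seen after a loess correction fitted with the members included. Rps6 is the only member beyond 1.5-fold.

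The same tendency is seen in the summed signal. All 100 probe sets of the members together held 6.95% of the total linear signal of non-control probe sets on the hPHD4 array and 7.43% on the control array. A further 102 probe sets were given jointly to a ribosomal protein symbol and to other symbols. They carry no gene name here and took no part in the gene values. With them included, the shares were 15.1% and 16.3%. Of 94 such joint probe sets measured in both clones, 79 (84.0%) had a ratio below 0, and their median was −0.16. Among the 88 measured probe sets of single members 66 were below 0, with a median of −0.12, whereas 47.3% of all 12620 measured probe sets were. Joint probe sets can read many near-identical copies, and both sets of probe sets were read on the same 2 arrays.

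These genes had some of the brightest probe sets of the array, and ratios drifted with brightness. Among measured genes outside the family with a mean log2 signal over 13, the median ratio was −0.05 and 58.8% of 51 lay below 0. Of the 27 members in that range 77.8% lay below 0, with a median of −0.09. Above a mean log2 signal of 14 there were 21 members, with a median of −0.05 and 81.0% below 0. The 10 other genes in that range had a median of −0.0082 and 50% below 0, so the drift was not seen in those 10. The highest signal on either array was a log2 value of 15.4. Whether signals near the top of the scale were compressed was not tested. Probe sets for spiked-in hybridisation controls (bacterial BioB, BioC and BioD, and Cre of phage P1) had a median ratio of −0.39, with 17 of 18 below 0. Scaled to those controls, all measured genes had a median of 0.42 and the members 0.30, with 8.70% of them and 12.4% of all measured genes below 0, a shift that leaves the difference of −0.12 between them as it was.

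**Figure D2:**
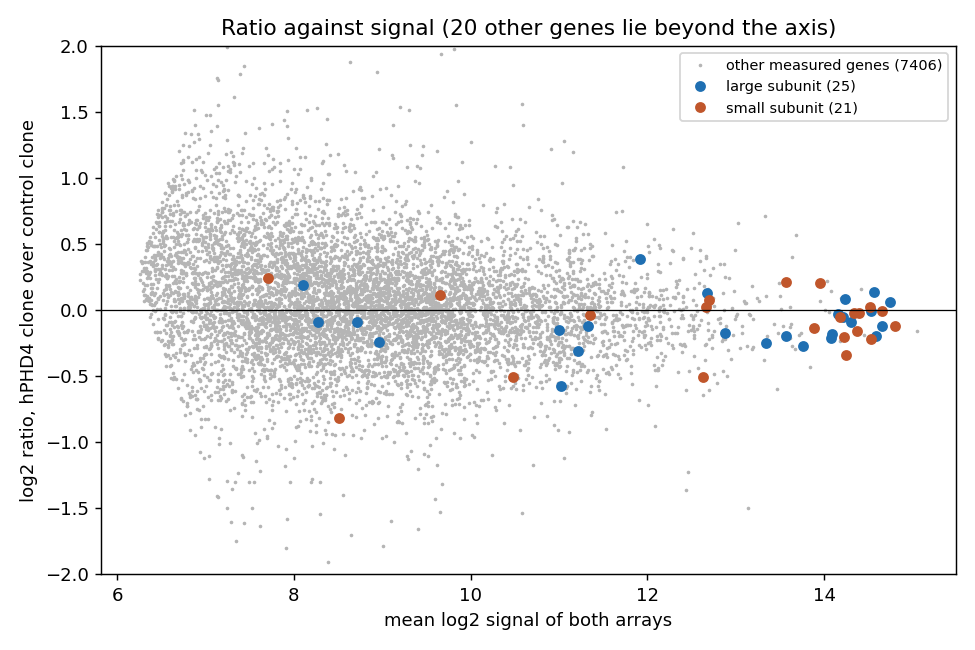
Log2 ratio (hPHD4 clone over control clone) against mean log2 signal of both arrays for 7406 other measured genes (grey), 25 large subunit genes and 21 small subunit genes. Most members sit above a signal of 12, slightly under 0, in the region where other genes also lie under 0 on balance (median −0.05 over 246 genes).

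Both subunits lay on the lower side, with overlapping ranges. The 25 measured large subunit genes had a median ratio of −0.12 and ranged from −0.57 (Rpl7l1) to 0.38 (Rpl39l), and 19 of them (76.0%) lay below 0. The 21 measured small subunit genes had a median of −0.04 and ranged from −0.82 (Rps6) to 0.25 (Rps27), and 14 (66.7%) lay below 0. The medians differed by −0.08, large minus small, but the means differed by 0.01 in the opposite direction (−0.10 and −0.11). The difference of medians was below 0 in 11 of 13 other settings, reaching −0.15 after quantile normalization, −0.13 after loess correction and −0.13 without probe sets of types _x_at and _s_at. It was 0.01 under a floor at the 60th percentile and 0.01 with the brightest probe set alone standing for each gene. The difference of means was below 0 in 4 of the 13 settings. Median centring and scaling to the spiked-in controls, both counted among the 11, shift every gene by the same amount. By construction they could change neither difference. Without replicate arrays there is no error for either difference. After quantile normalization and after loess correction the small subunit median was 0.07 and 0.06, on the other side of 0.

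Rps6 had the lowest ratio of the family. It encodes the small subunit protein that S6 kinases phosphorylate downstream of mTOR. Its measured probe set had linear signals of 275 (hPHD4) and 485 (control), 1.76-fold lower (log2 ratio −0.82), more than the probe set SD of 0.35. The other probe set of Rps6 alone was far under the floor on both arrays, at 12.9 and 4.96. The annotation gives 9 further measured probe sets jointly to Rps6 and 1 other symbol, so they carry no gene name here. Their ratios ran from −0.77 to 0.42 with a median of −0.26, and 8 were below 0; the brightest, at 33235 and 36471, had −0.13. The value of Rps6 thus rests on 1 of the dimmest measured probe sets of the family.

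Rps10, Rps29, Rps18 and Rps28 belong to the head of the small subunit. Rps10, which lies at the entry of the messenger RNA channel, was read by 6 probe sets, all below 0. Their linear signals in the hPHD4 and control clones were 20153 and 21569, 14937 and 19316, 19440 and 25577, 18992 and 24958, 2298 and 5431, and 89.5 and 128. The hPHD4 clone was lower on each, by 0.10 to 1.24 on the log2 scale, and the gene mean was −0.50 (SD 0.39 over probe sets). Rps29, a zinc-binding protein, had signals of 19526 and 23659, 16808 and 21681, and 15889 and 20670 on its 3 probe sets. All 3 were lower in the hPHD4 clone, with a mean ratio of −0.34 and an SD of 0.06, so they differed little from each other. All 3 are of type _x_at, so Rps29 had no value in the setting without _x_at and _s_at. Rps18 was at −0.22 on 3 measured probe sets and Rps28 at −0.21 on 3, each with ratios below 0 throughout. Of the 14 listed head proteins, 9 were measured as single genes and 8 lay below 0 (88.9%, beside 46.4% of all measured genes), with a median of −0.21. That median was −0.09 after loess correction and −0.09 after quantile normalization. Of the listed proteins not read as single genes, Rps16 had a joint probe set at 0.32. The 3 measured joint probe sets of Rps12 had a median of 0.06, with 1 below 0. Rps25, which supports translation from internal entry sites, was at −0.51 (1199 and 1703) on 1 probe set. A joint probe set of Rps25 and 2 other symbols, which has no gene name here, had a ratio of 0.10. Rps3 (−0.16), Rps15 (−0.14) and Rps20 (−0.04) were nearer to 0. The mean of Rps20 joins bright probe sets at −0.11 and −0.27 and a dim one (119 and 99.0) at 0.27. That mean is also the small subunit median. Rps19, mutated in Diamond-Blackfan anaemia, lay the other way at 0.21 (13092 and 11280).

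Several of the low members share a chromosome. All 6 measured members on chromosome 17 (Rpl7l1, Rps10, Rps18, Rps28, Rps2 and Rpl10a) lay below 0, with a median of −0.21. The 373 measured genes of that chromosome had a median of −0.17, and 70.8% of them lay below 0. The 40 members on other chromosomes had a median of −0.07. Chromosome 17 was not the only one to differ. Over all measured genes the median was −0.19 on chromosome 5 (491 genes) and 0.19 on chromosome 7 (532 genes). The 2 members on chromosome 5 had a median of −0.19 and the 6 on chromosome 7 a median of 0.05. After subtraction of each chromosome's median, the family's median was −0.05. Rps2 was at −0.12 and Rpl10a at −0.03. The chromosome grouping was chosen with earlier results known, and its part in the result was not tested.

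Further small subunit genes stayed close to 0. Rpsa, also known as the laminin receptor precursor, had signals of 21385 and 21664 (−0.02), Rps4x, the X-linked S4 protein, 25756 and 25877 (−0.0068), and Rps26, which touches the messenger RNA at the exit channel, 20539 and 20859 (−0.02). Rps3a1 was at 0.02 and Rps14 at −0.05. Rps24 had 5 measured probe sets between −0.05 and 0.39 and a mean of 0.08. In each of these genes the 2 clones differed by less than the probe set SD. On the higher side, Rps7 had both probe sets above 0 (16977 and 14758 on average, ratio 0.20, SD 0.03). A joint probe set of Rps7 and 1 other symbol lay the other way at −0.08 (21318 and 22460). The probe sets of Rps9 spread from −0.23 to 0.46, so its mean of 0.11 hides an opposite sign on the brightest one. Rps27, at 0.25, was read by a dim probe set (229 and 193), and a bright joint probe set of Rps27 and 1 other symbol had −0.12.

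In the large subunit, Rpl7l1 had the lowest ratio. It is a paralog of Rpl7 found in the nucleolus. Both of its probe sets were lower in the hPHD4 clone, at 2027 against 2871 and at 1428 against 2229, and the gene was 1.49-fold lower (−0.57, SD 0.10). Rpl7 itself was at −0.27, from −0.52 to −0.01 over 3 probe sets that all lay below 0. Rpl41, which encodes the shortest ribosomal protein, was at −0.31, with ratios between −0.56 and −0.21 on 4 probe sets. Its brightest probe set had 35114 and 40773. Rpl13a, which can leave the ribosome to silence inflammatory messengers, was at −0.20 on 4 probe sets, all below 0. Rpl27 was at −0.17 on 3 probe sets, all below 0. Rpl14 was at −0.24 and Rpl6 at −0.18, each on 1 probe set.

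In the gene values, proteins with a named place in the large subunit did not stand out. Rplp0 and Rplp2, of the stalk that recruits elongation factors, had ratios of −0.20 (22972 and 26360) and −0.0093 (23557 and 23710). Rpl11, which with the 5S RNA can bind the p53 inhibitor MDM2, was at −0.21 (16004 and 18557). Of the exit tunnel, Rpl4 was at −0.12, Rpl39 at −0.09, Rpl35 at −0.05 on 5 measured probe sets and Rpl19 at 0.09. Rpl8, in the peptidyl transferase region, was at −0.09 and Rpl7a at 0.06. Rpl12 was at −0.09 on a dim probe set of 408 and 434. Bright joint probe sets of Rpl12 and other symbols had −0.60 (12078 and 18309) and −0.04 (24298 and 24995). Rpl38, which has been linked to the translation of Hox messengers, was at 0.13 (25281 and 23050). Rpl27a was at 0.19 on a dim probe set of 294 and 258, and a bright joint probe set of Rpl27a and 4 other symbols had −0.10 (20214 and 21656). Rpl37a had a mean of 0.13, but its bright probe sets were at −0.27 and −0.29, and the remaining one, at 946 and 485, was at 0.96, an SD of 0.72. For Rpl37a the direction therefore depended on 1 probe set.

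Paralogs of ribosomal proteins differed in direction. Besides Rpl7l1, Rpl22l1 was lower in the hPHD4 clone at −0.25 (9508 and 11291), and its parent Rpl22, an RNA-binding protein of the large subunit, was at −0.12 with probe sets at −0.34 and 0.10. Rps27l, a target of p53, was at 0.02 on 3 probe sets between −0.06 and 0.11. Rpl39l, which replaces Rpl39 in the male germline, had the highest ratio of the family at 0.38 (4415 and 3385, 1.30-fold higher), against a probe set SD of 0.35. Its parent Rpl39 was at −0.09 on a dim probe set of 300.3 and 319, while a joint probe set of Rpl39 and 1 other symbol had −0.57. Rpl3l, a muscle-specific form, and Rps4l, annotated as a pseudogene, were under the floor in both clones. The 4 measured paralogs had a median of −0.11. The 100 bases before the annotated starts of Rpl39 and its paralog are shown with the matches in these stretches in capitals. Over the whole 300-base windows CCGGAA was found for both genes, and of the named motifs TATAAA alone was found for 1 of them, Rpl39.
Rpl39 (chrX:37085223-37085322, minus strand, GRCm38.p6): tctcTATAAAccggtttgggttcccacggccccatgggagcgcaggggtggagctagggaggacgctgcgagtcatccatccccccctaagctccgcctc
Rpl39l (chr16:10170128-10170227, plus strand, GRCm38.p6): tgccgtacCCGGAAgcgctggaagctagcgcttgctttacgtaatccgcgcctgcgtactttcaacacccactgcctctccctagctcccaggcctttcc

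Genes that work with the ribosome were described from lists put together by function. The 26 measured initiation factor genes had a median of −0.15, and 18 lay below 0. Eif3l, a subunit of eIF3, was 1.5-fold lower or more at −0.61 (4508 and 6860), the only one past that threshold, and Eif2s2, the beta subunit of eIF2, followed at −0.35. Highest were Eif2b2, a subunit of the eIF2 exchange factor, at 0.31 and Eif2s3x at 0.06. Elongation factors had a median of −0.13 over 6 genes but a mean of −0.0047. Eif5a was at −0.17 and Eef1a1 at −0.16, and Eef1b2, of the exchange factor of eEF1A, was at 0.45 (9523 and 6953), with Eef2 at 0.11. Other messengers known for a TOP tract had a median of −0.10 over 14 genes, 9 of them below 0, and a mean of −0.02. Most of these genes, such as Eef1a1, Eef2, Eif3e and Npm1, also stand in other lists here, so the list re-uses their values. Eif3h (−0.26) and Eif3e (−0.23) were lowest, Eef1b2 and Fau highest. Fau, which encodes a ubiquitin-like protein fused to the small subunit protein eS30 and falls outside the symbol rule, was at 0.40 (14664 and 11101), next to the 0.38 of Rpl39l, and at 0.10 after subtraction of the median of its chromosome.

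Ribosome assembly genes lay on both sides. Of 41 measured, 22 were below 0, with a median of −0.04 and a mean of 0.01. Sbds, the factor mutated in Shwachman-Diamond syndrome, was at −0.60 and Noc4l at −0.56. Rrp12, which acts in export of the subunits, was at 1.10 with a dim signal (244 and 113), and Noc3l was at 0.57. Subunits and factors of RNA polymerase I, which makes the large ribosomal RNA, had a median of −0.03 over 12 genes. Znrd1 (−0.74) and Polr1e (−0.63) were past 1.5-fold lower, and Taf1b (0.67) past 1.5-fold higher, with Polr1a at 0.35. Regulators of ribosomal protein synthesis had a median of −0.12 over 12 genes, with Tsc1 at −0.76 (135 and 228), Rheb, an activator of mTOR, at −0.47, Mycn at 0.23 and Rps6kb2 at 0.38. Myc was at −0.25. Import, rescue and chaperone genes had a median of 0.07 over 11 genes, from Abce1, the ribosome recycling factor, at −0.57 and Tnpo1 at −0.19 to Ipo4 at 0.23 and Aamp at 0.42.

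Mitochondrial ribosomal proteins had nearly the same median as the cytosolic ones. All 74 on the array were measured, 45 (60.8%) lay below 0, and the median was −0.10 with a mean of −0.05. They ranged from Mrpl33 at −0.61 and Mrps18c at −0.58 to Mrps6 at 0.64 and Mrpl16 at 0.96 (2935 and 1506). With 1 lower and 2 higher past 1.5-fold, their shares were under those of all measured genes. After the loess correction the median of the mitochondrial set was −0.09, while that of the cytosolic set was −0.0091.

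**Figure D3:**
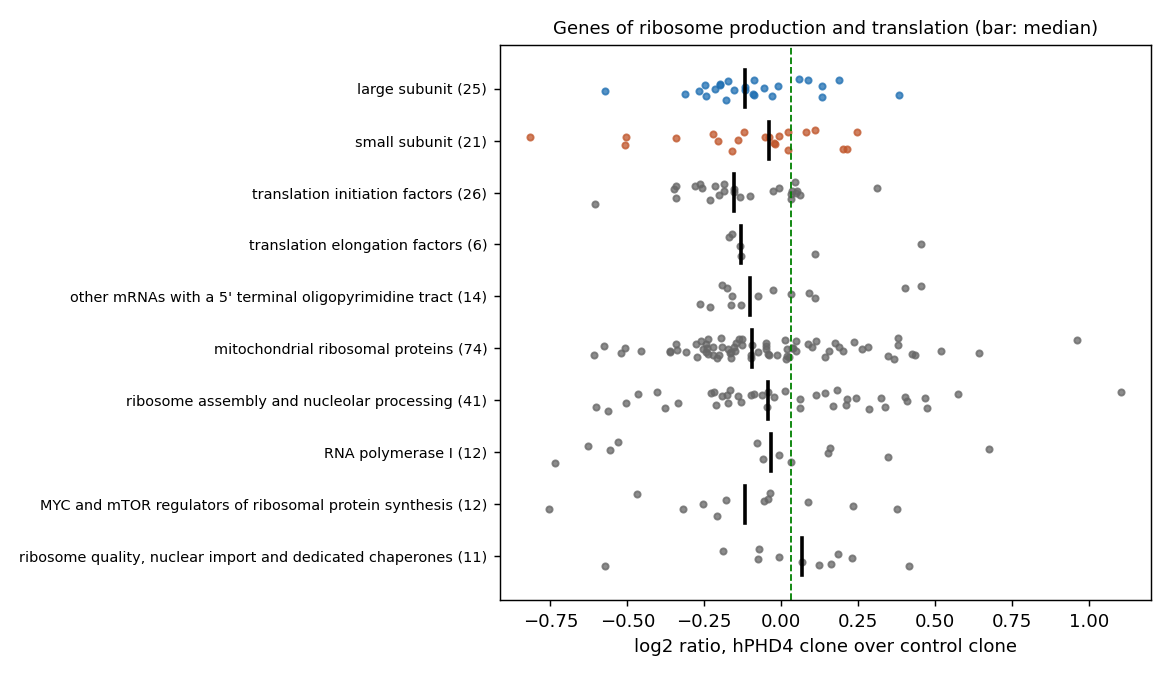
Log2 ratios (hPHD4 clone over control clone) of single measured genes in the 2 subunits and 8 lists of ribosome production and translation, with the median of each as a black bar and the number of genes in brackets; the dashed line is the median of all measured genes (0.03). Medians lie between −0.15 (initiation factors) and 0.07 (import, rescue and chaperone genes), and the ranges overlap. Some genes, such as Eef1a1 and Npm1, are shared between lists.

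**Figure D4:**
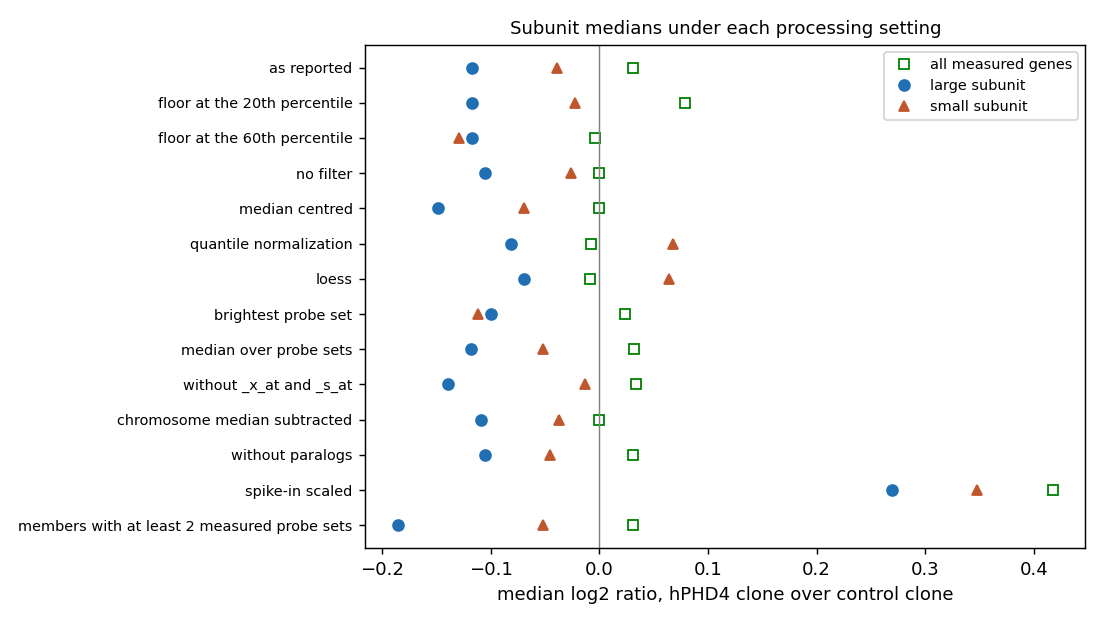
Median log2 ratio (hPHD4 clone over control clone) of large subunit genes (circles), small subunit genes (triangles) and all measured genes (squares) as reported and under 13 other settings. The large subunit lies below all genes in each, from −0.19 to 0.27, whereas the small subunit median is above the median of all genes after quantile normalization and loess correction.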

How the data were processed

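Per the submitters' processing notes the authors used MAS5, and each probe set has a deposited log2 signal; the MAS5 version is not given in the sources used here. Biotin-labelled targets were made from total RNA (5 µg), according to the labels' protocols. Log base and scaling were read from the values: powers of 2 had the same trimmed mean on both arrays. Of 22690 probe sets, 64 were controls, 20380 had 1 gene symbol, 691 several and 1555 none; 20351 of those with 1 symbol matched a gene table of GRCm38.p6 by gene number, which gave chromosomes. Gene values were mean log2 ratios over probe sets above the 40th percentile on both arrays, and gene signals are geometric means over those probe sets. Steps were computed in Python 3.11.15 with pandas 2.3.3 and tested on simulated data. Members and lists were chosen with earlier results of these data known. Named were the 6 highest and 6 lowest members, the 4 brightest (Rps2, Rpl7a, Rpl4, Rps4x) and 4 dimmest, those with at least 3 measured probe sets, paralogs with their parents, and the 2 highest and 2 lowest of each other list; any others were named with their values known. Alternatives covered floor, filter, scaling, choice of probe set, chromosome and members.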

Additional observations from a re-analysis of the deposited data

How the results depend on the processing

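No paired analysis was possible because each group is 1 array, and no array can be left out. The limit is the lack of replicates: signals above background say nothing of the spread between clones. Under 13 alternatives the median of the members lay between −0.14 and 0.30, and 12 were below 0; its difference from all genes lay between −0.17 and −0.00045. Scaling to the spiked-in controls, chosen after seeing the data, raised every gene by 0.39 by construction. It gave medians of 0.30 for the members, 0.27 for the large and 0.35 for the small subunit, with 4 members below 0, 4 at least 1.5-fold higher and 0 lower; of all measured genes 12.4% were below 0, 32.7% at least 1.5-fold higher and 1.02% lower. List medians were then 0.18 (small subunit head), 0.28 (stalk), 0.17 (5S particle), 0.31 (exit tunnel), 0.27 (paralogs), 0.30 (their parents), 0.79 (ubiquitin fusion, Fau alone), 0.26 (elongation), 0.23 (initiation), 0.28 (TOP), 0.35 (assembly), 0.35 (polymerase I), 0.27 (MYC and mTOR), 0.45 (import, rescue and chaperones) and 0.29 (mitochondrial). The count past 1.5-fold lower was 0 with no filter, 2 after median centring and 0 at 2-fold; beyond a log2 ratio of 0.32, 5 members were lower and 1 higher. With only members of at least 2 measured probe sets, also chosen after seeing the data, 14 of 19 lay below 0 and 0 were past 1.5-fold lower, since fewer genes were counted. Of 150 list medians under the other alternatives, 7 had the opposite sign to the reported one: the stalk (0.01 and 0.02) and the exit tunnel (0.02 and 0.04) under quantile normalization and loess, the TOP list (0.0029) with the floor at the 20th percentile, polymerase I (0.01) with the brightest probe set and the import list (−0.04) with the chromosome median subtracted, which also put Fau at 0.10.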

Other observations

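Probe sets of the same ribosomal protein gene differed widely in signal. For 8 members, 1 or more probe sets lay under the floor on at least 1 array beside a measured one, and 10 of the 100 probe sets were dim in this sense; Rpl3l and Rps4l had no measured probe set. Rpsa had linear signals of 21385 and 21664 in the hPHD4 and control clones on one probe set and 2.52 and 7.77 on the other. Rps4x had 25756 and 25877 beside 6.64 and 5.14. Rps18 had 3 bright and 3 dim probe sets, the bright ones between 19874 and 26895 and the dim ones between 10.1 and 74.2. Above the floor, Rpl41 had probe sets at 35114 and at 125 in the hPHD4 clone. The measured probe sets of Rps6 and Rpl27a beside their dim ones were themselves under 500. What the dim probe sets hybridise to was not tested.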
